A study of Mus musculus with 7 samples.

Results

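The transcripts of the Myc, Max and Mxd network were examined in inner cell masses (ICMs) of mouse blastocysts in which ERK could be switched on with tamoxifen. The network was taken as 10 genes chosen by their symbols, Myc, Mycn, Mycl, Max, Mxd1, Mxd3, Mxd4, Mxi1, Mnt and Mga, out of 52636 genes in the count table, and each was matched by its Ensembl identifier. All 10 passed the expression filter and were among the 16248 genes tested. Embryos labelled Sox2Cre;CRAFR26, which carry a tamoxifen-inducible cRAF construct with Cre driven by Sox2, were flushed at embryonic day 2.5. All of them, controls included, were cultured for 24 h in KSOM medium with 250 nM PD173074, an inhibitor of the FGF receptors that lie upstream of ERK. Tamoxifen libraries (n = 4) came from embryos given 250 nM 4-hydroxytamoxifen for 4 h, and vehicle libraries (n = 3), labelled 0 h, from embryos given ethanol for 4 h. Immunosurgery was used, per the labels, to take off the outer trophectoderm. Pools of 10 ICMs, labelled as epiblast of embryonic day 3.5, gave 2 ng of RNA for a library. The mouse line came from 2 embryonic stem cell clones, 4 and 8. Libraries are named here by group and by the clone and number in their titles, and clone 8 had a single vehicle library, clone8_1; per the series text, another vehicle sample failed quality control. Nothing in the labels says that the pools of a group came from separate litters, so p-values measure the spread between these libraries.

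Myc proteins are transcription factors of the basic helix-loop-helix leucine zipper class. Myc, Mycn and Mycl each bind DNA as a dimer with Max, at the E-box sequence CACGTG, and activate genes of ribosome production, metabolism and the cell cycle. The Mxd proteins and Mnt compete for Max and, at the same sequence, recruit the Sin3 histone deacetylase complex, which represses. Mga is a very large Max partner with a second DNA-binding domain, and is part of a variant Polycomb complex that keeps germline genes silent in pluripotent cells. In embryonic stem cells Myc and Mycn have overlapping functions in growth. ERK acts on Myc protein by phosphorylation as well as on transcription, and only transcripts were measured here.

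The E-box itself was looked for in promoters of the network, since dimers with Max bind it. RefSeq windows (GRCm38.p6) from 250 bases before to 50 bases after the start of transcription were matched by symbol for 9 of the 10 members; Myc had no entry. The letters CACGTG, which read the same on both strands, occurred in 3 of the 9, against 8.09% of the 27025 genes with a window. The 3 members were Max, Mnt and Mxd4, and their sequences are shown because they place the binding sequence of the network in its own genes. The fourth sequence, from Ddx4, a germline RNA helicase, is from the genes silenced with Mga and Max, of which 8 of 12 held the motif. Of those 8, Ddx4 alone had an unadjusted p under 0.05 for treatment (edgeR). It does not stand for the others, which went in both directions. Each run is written 5′ to 3′ with the E-box in capitals, and ends at the base before the start, except for Max, where the motif crosses the start and the run ends with it. The runs are Max at chr12:76962246-76962498, minus strand, Mnt at chr11:74830674-74830923, plus strand, Mxd4 at chr5:34187711-34187960, minus strand and Ddx4 at chr13:112652311-112652560, minus strand.
Max: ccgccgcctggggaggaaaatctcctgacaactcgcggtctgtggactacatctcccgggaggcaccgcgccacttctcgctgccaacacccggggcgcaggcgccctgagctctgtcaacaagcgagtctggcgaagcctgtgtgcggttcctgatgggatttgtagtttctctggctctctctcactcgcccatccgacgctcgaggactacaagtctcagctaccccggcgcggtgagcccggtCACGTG
Mnt: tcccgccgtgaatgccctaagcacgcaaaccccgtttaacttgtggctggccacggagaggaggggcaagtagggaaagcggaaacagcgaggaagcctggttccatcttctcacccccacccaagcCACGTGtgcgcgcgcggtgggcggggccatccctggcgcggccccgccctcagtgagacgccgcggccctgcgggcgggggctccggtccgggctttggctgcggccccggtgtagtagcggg
Mxd4: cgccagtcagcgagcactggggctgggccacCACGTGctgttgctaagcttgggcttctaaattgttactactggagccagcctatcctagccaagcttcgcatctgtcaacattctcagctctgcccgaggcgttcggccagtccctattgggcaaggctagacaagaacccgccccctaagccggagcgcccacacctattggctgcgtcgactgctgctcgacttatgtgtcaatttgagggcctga
Ddx4: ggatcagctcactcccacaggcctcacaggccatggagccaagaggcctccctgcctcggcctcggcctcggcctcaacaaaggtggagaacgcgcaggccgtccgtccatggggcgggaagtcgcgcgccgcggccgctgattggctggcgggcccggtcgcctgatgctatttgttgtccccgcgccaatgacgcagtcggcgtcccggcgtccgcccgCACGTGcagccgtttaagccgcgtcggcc
A match is a description of the letters, and occupancy was not measured.

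Library totals ranged from 22981498 to 42294719 counts. Vehicle clone8_1 stood apart. In it, the 1162 tested coding genes whose typical transcript is shorter than 1000 nt lay at a median of -1.29 (log2) from the median library, while the other 6 libraries lay between -0.0378 and 0.219. For the 3361 genes from 1000 nt to under 2000 nt the median was 0 in every library. Each gene was measured from its own median over the libraries, so exact 0 values are common. A small shift of these longer genes could therefore still read as 0. The members have typical transcripts (the median over coding transcripts of the GENCODE basic set) of 1327 nt to 13440.5 nt, so none fell in the short class. The label epiblast was checked against markers. Summed over 10 genes each, naive epiblast markers stood at 1665 to 2199 CPM (counts scaled to the library total and TMM factor), primitive endoderm markers at 844.9 to 1148 CPM and trophectoderm markers at 6546 to 11230 CPM over the 7 libraries. The most abundant gene of these lists was Nanog, Dab2 and Krt18, in that order. Trophectoderm markers thus exceeded the naive markers in summed CPM in every library, though these sums were not divided by transcript length. Mean levels were 3022 CPM for Krt18, 2825 CPM for Krt8, 780.9 CPM for Gata3 and 463.1 CPM for Cdx2. Trophectoderm markers at these levels do not bear out a pool of epiblast alone. In these bulk samples, fewer cells of a type and less RNA per cell cannot be told apart. A set of 10 feedback genes of ERK summed to 299.8 to 390.6 CPM in vehicle and to 424.6 to 482.7 CPM in tamoxifen libraries; 7 were higher and 3 lower, and of the 10 only Spry2, an inhibitor of the pathway that ERK induces, was below 0.05 in unadjusted p (log2 difference 0.86 ± 0.21, SE), as were 5.97% of all genes.

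Levels of different members can be compared only per length, so CPM were divided by the typical transcript length in kilobases. Max, the obligate partner, had the highest level, 48.62 CPM per kilobase on average over the 7 libraries, with values from 36.84 to 67.83. Myc followed at 33.45 and was below Max in 7 of 7 libraries, although the ranges overlapped. Mycn was next at 10.03 CPM per kilobase, below Myc in 7 of 7 libraries, again with overlapping ranges. Mga (7.004) and Mxd3 (6.838) followed, and the order of these 3 genes varied, with Mycn above Mga in 5 of 7 libraries, Mycn above Mxd3 in 4 of 7 and Mga above Mxd3 in 4 of 7, all with overlapping ranges. A gap followed, since Mxd3 was above Mxi1 (2.356) in 7 of 7 libraries with no overlap. The lowest levels per kilobase were those of Mnt (1.965), Mycl (1.426), Mxd1 (0.8885) and Mxd4 (0.3415), whose neighbours in this order overlapped. Division by the longest transcript instead left Max, Myc and Mycn in the first 3 ranks and moved Mxi1, which has transcripts of up to 5036 nt, from rank 6 to rank 9.

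**Figure D1:**
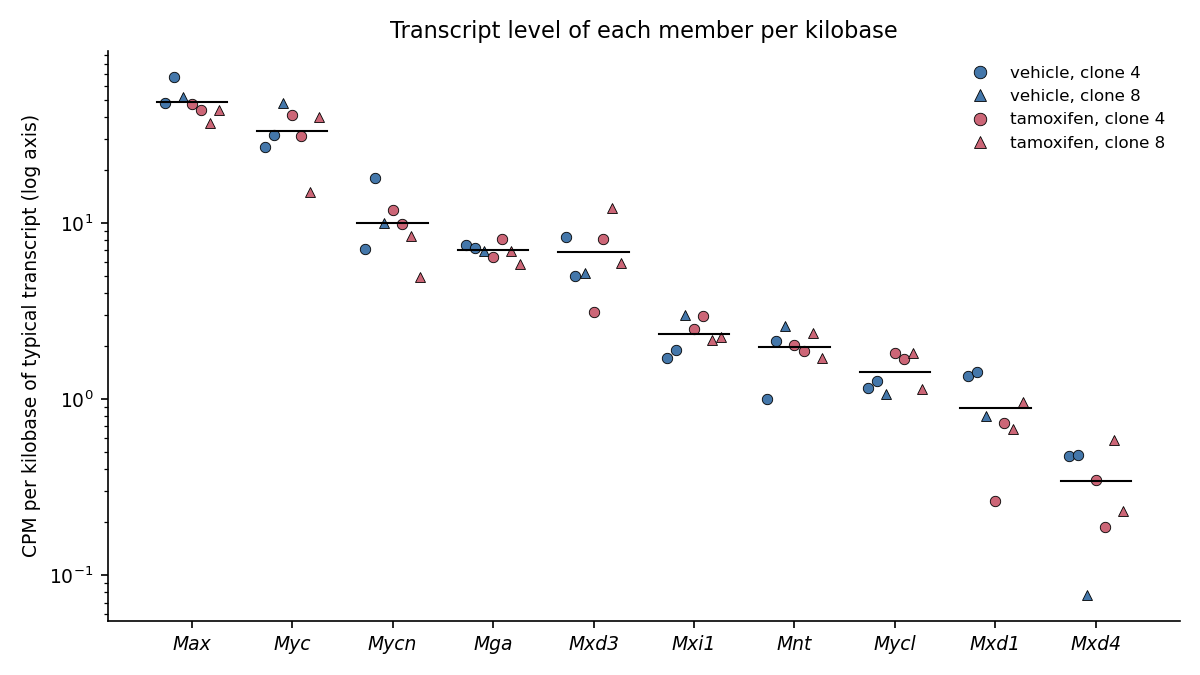
Level of each member in CPM per kilobase of typical transcript on a log axis, with 1 point per library (circles for clone 4, triangles for clone 8) and a bar at the mean of the 7 libraries. Max and Myc stand above the other members within each library, although the ranges of Myc and Mycn overlap, and Mxd4 is lowest in vehicle clone8_1.

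The main comparison asked which members differed after 4 h of tamoxifen. Not one of the 10 was called. The quasi-likelihood test of edgeR, adjusted by Benjamini-Hochberg, called 0 of 16248 genes (0%), with 970 genes at an unadjusted p under 0.05 (5.97%), and DESeq2 called 4 genes, none a member. No member reached an unadjusted p under 0.05 in either test. The log2 difference, tamoxifen against vehicle throughout, was above 0 for 4 members and below 0 for 6, with a median of -0.047, against 0.019 over all genes tested. The smallest p belonged to Max, the next to Mxd1, and the CPM of the groups failed to overlap for Max alone, as they did for 8.45% of all genes tested, 4.74% with lower and 3.71% with higher values. Markers of cell types were read beside the members, and none of them was called. Of trophectoderm markers 10 of 10 were lower with tamoxifen (median -0.33, summed 8530 to 11230 CPM in vehicle and 6546 to 9534 CPM in tamoxifen libraries), with 3 of them, Gata3, Krt7 and Elf3, at an unadjusted p under 0.05. Of 9 tested primitive endoderm markers 6 were higher, Sox17 and Lama1 under that limit. Their list of 10 did not rise as a sum, with a mean of 979.6 CPM in vehicle and 936.0 CPM in tamoxifen libraries. Of 9 tested naive markers 7 were higher, Klf4 under that limit. The sum of the 10 naive markers had a mean of 1913 CPM in vehicle and 1917 CPM in tamoxifen libraries. The part of these markers in the values of the members was not tested.

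**Figure D2:**
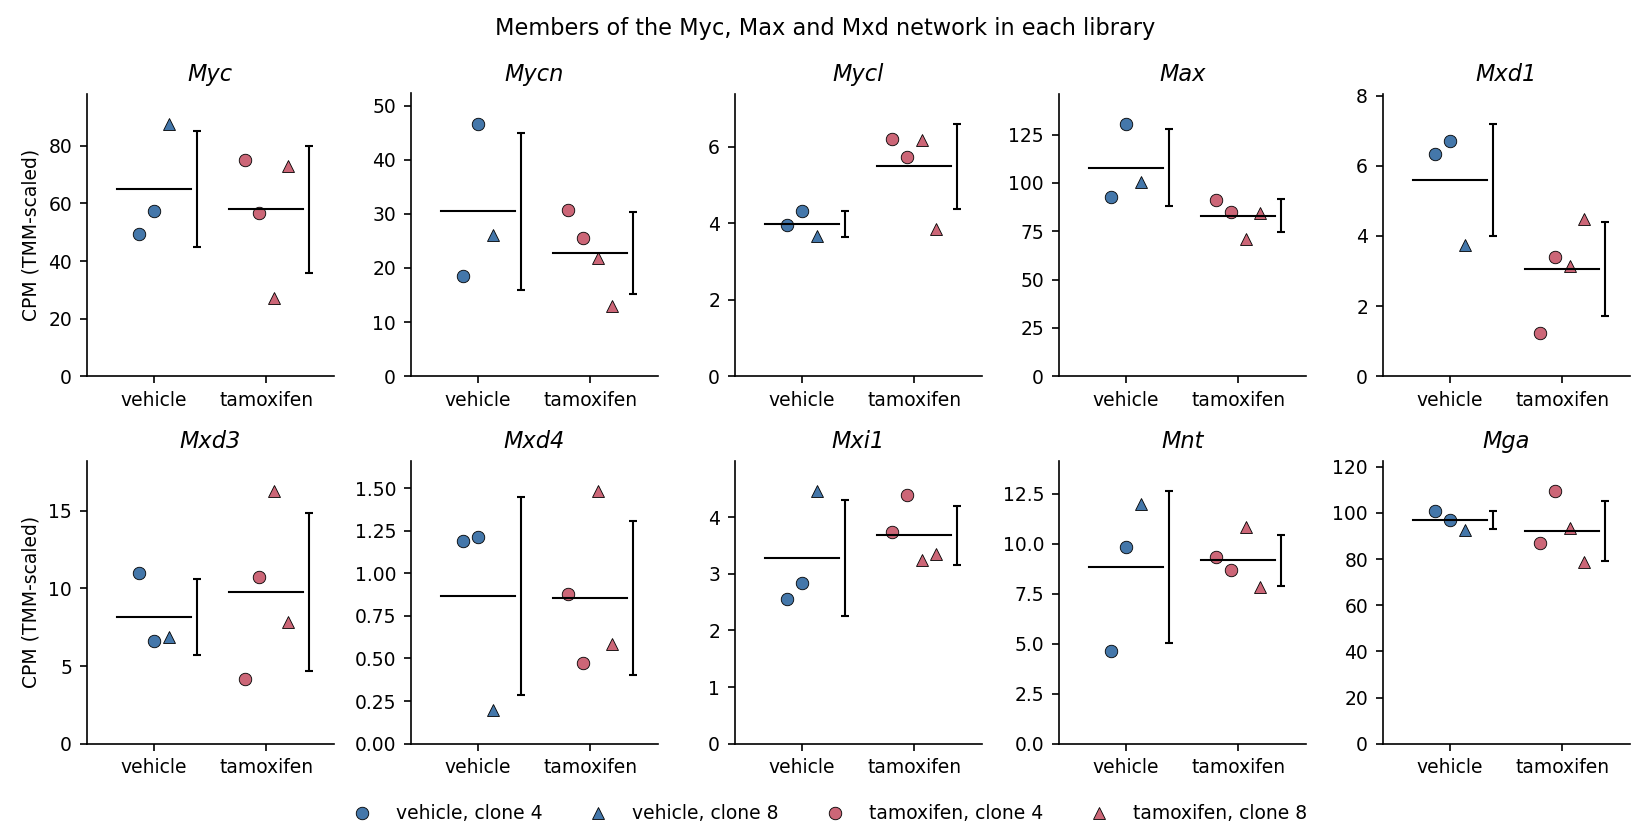
CPM of each member in the 3 vehicle and 4 tamoxifen libraries, scaled by TMM factors, with clone 4 as circles and clone 8 as triangles. Horizontal lines are group means and the bars beside them 1 SD; Max is the panel without overlap between the groups.

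Among the activators, Myc (ENSMUSG00000022346, chromosome 15, 61985391 to 61990374, plus strand) stood at 49.5, 57.36 and 87.66 CPM in vehicle clone4_1, clone4_2 and clone8_1. In tamoxifen clone4_1, clone4_2, clone8_1 and clone8_2 it stood at 74.98, 56.69, 27.27 and 72.89 CPM. The highest and the lowest of the 7 values were thus the libraries named clone8_1, on opposite sides of the comparison, and the groups overlapped widely. The log2 difference of Myc was -0.16 ± 0.33 (SE), with a 95% interval from -0.91 to 0.58 (adjusted p = 0.923, edgeR). Without vehicle clone8_1 it was 0.11, without tamoxifen clone8_1 it was 0.07, and without both it was 0.35 (unadjusted p = 0.0906, edgeR). These data therefore gave no direction for Myc, an immediate early gene in many cells.

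Mycn (ENSMUSG00000037169, chromosome 12, 12936093 to 12941914, minus strand), a paralog active in many embryonic progenitor cells, stood at 18.53, 46.65 and 26.17 CPM in vehicle clone4_1, clone4_2 and clone8_1. In tamoxifen clone4_1, clone4_2, clone8_1 and clone8_2 it was found at 30.69, 25.61, 21.85 and 12.89 CPM. The highest value came from vehicle clone4_2 and the lowest from tamoxifen clone8_2, with the remaining 5 values between 18.53 and 30.69. Its log2 difference was -0.42 ± 0.36 (SE), with a 95% interval from -1.21 to 0.38 (adjusted p = 0.826, edgeR). Without vehicle clone4_2 the difference was 0.023.

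Mycl (ENSMUSG00000028654, chromosome 4, 122995652 to 123002485, plus strand), a further activator of the family, had the largest positive difference of the 10 members. It stood at 3.95, 4.33 and 3.66 CPM in vehicle clone4_1, clone4_2 and clone8_1 and at 6.205, 5.73, 6.18 and 3.86 CPM in tamoxifen clone4_1, clone4_2, clone8_1 and clone8_2. Of the 4 tamoxifen values, tamoxifen clone8_2 alone lay within the vehicle range. On the log2 scale the difference was 0.47 ± 0.32 (SE), with a 95% interval from -0.25 to 1.18 (adjusted p = 0.803, edgeR), and it stayed between 0.34 and 0.61 in the 15 alternatives.

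Max (ENSMUSG00000059436, chromosome 12, 76937269 to 76962201, minus strand) stood at 92.75, 130.6 and 100.4 CPM in vehicle clone4_1, clone4_2 and clone8_1. In tamoxifen clone4_1, clone4_2, clone8_1 and clone8_2 it stood at 91.17, 84.88, 70.96 and 84.66 CPM. Each tamoxifen value lay below each vehicle value, with a narrow gap between 91.17 and 92.75 CPM, and the groups also did not overlap under the other 3 scalings. Means were 107.9 ± 20.03 CPM (SD, n = 3) without and 82.92 ± 8.523 CPM (SD, n = 4) with tamoxifen. The log2 difference of -0.38 ± 0.18 (SE) had a 95% interval from -0.77 to 0.0097 and did not pass the test (unadjusted p = 0.0549, adjusted p = 0.794, edgeR). Its value lay between -0.49 and -0.22 in the 15 alternatives. The unadjusted p (edgeR) was 0.0294 without vehicle clone4_1 and 0.0395 without vehicle clone8_1. Without vehicle clone4_2, where the difference was smallest in size (-0.22), it was 0.254. The p was 0.112 without tamoxifen clone8_1 and 0.144 with the replicate block. A predicted gene model on the same strand, Gm47218, overlaps Max by 1319 bp and held at most 23 counts.

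Among the antagonists, Mxd1 (ENSMUSG00000001156, chromosome 6, 86647042 to 86669161, minus strand), which is induced when many cell types differentiate, had the largest difference of the network. It stood at 6.33, 6.70 and 3.75 CPM in vehicle clone4_1, clone4_2 and clone8_1, and at 1.23, 3.41, 3.14 and 4.47 CPM in tamoxifen clone4_1, clone4_2, clone8_1 and clone8_2. The vehicle libraries of clone 4 were the highest and tamoxifen clone4_1 the lowest, and the groups overlapped through vehicle clone8_1 and tamoxifen clone8_2. For this gene the log2 difference was -0.87 ± 0.46 (SE), with a 95% interval from -1.89 to 0.15 (unadjusted p = 0.0859, adjusted p = 0.794, edgeR). It was between -1.18 and -0.62 in the 15 alternatives. The unadjusted p (edgeR) was 0.0442 without vehicle clone8_1, but 0.207 without vehicle clone4_2 and 0.173 without vehicle clone4_1. Without tamoxifen clone4_1 it was 0.157. A predicted gene model on the same strand, Gm44292, overlaps Mxd1 by 2364 bp. It held at most 50 counts, where Mxd1 had between 52 and 255 counts per library.

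Mxd3 (ENSMUSG00000021485, chromosome 13, 55325168 to 55329823, minus strand), the Mxd protein linked to proliferating cells, ranged from 6.63 to 10.99 CPM in vehicle and from 4.17 to 16.25 CPM in tamoxifen libraries. Its lowest and its highest value were both tamoxifen libraries, clone4_1 and clone8_1. On the log2 scale the difference was 0.25 ± 0.43 (SE), and it was -0.11 without tamoxifen clone8_1. Mxd3 shares 105 bp with Prelid1 on the opposite strand, which held up to 10223 counts, and the strand setting of the counting is not given in the sources used here.

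Mxd4 (ENSMUSG00000037235, chromosome 5, 34173883 to 34187720, minus strand), another Sin3-binding Mxd protein, had the lowest level of the network. It had between 8 and 48 counts per library, and its 8 counts in vehicle clone8_1 gave 0.195 CPM with a 95% Poisson interval of 0.0842 to 0.384. The other vehicle libraries stood at 1.19 and 1.22 CPM and the tamoxifen libraries from 0.474 to 1.48 CPM. The log2 difference was -0.02 ± 0.77 (SE), with an interval from -1.75 to 1.71. The SD of its log2 CPM within groups was 0.998, and 0.339 without the libraries named clone8_1. The Poisson interval covers counting error only, since reads amplified without molecular identifiers are not independent molecules.

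Mxi1 (ENSMUSG00000025025, chromosome 19, 53310518 to 53375810, plus strand), the remaining member of the Mxd type, ranged from 2.56 to 4.46 CPM in vehicle and from 3.25 to 4.40 CPM in tamoxifen libraries. Its log2 difference was 0.17 ± 0.37 (SE), with an interval from -0.65 to 0.98. Mnt (ENSMUSG00000000282, chromosome 11, 74830920 to 74845725, plus strand), the widely expressed antagonist of Myc, stood at 4.62, 9.84 and 12.01 CPM in vehicle clone4_1, clone4_2 and clone8_1. Its tamoxifen libraries lay inside that range, from 7.82 to 10.83 CPM. The log2 difference of Mnt was 0.06 ± 0.34 (SE), and it was -0.27 without vehicle clone4_1, the library with the lowest value, and -0.033 without tamoxifen clone8_1.

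Mga (ENSMUSG00000033943, chromosome 2, 119897228 to 119969581, plus strand), the Polycomb partner of Max, was the most even member, with a ratio of 1.39 between its highest and lowest CPM. It stood at 100.8, 97.16 and 92.83 CPM in vehicle clone4_1, clone4_2 and clone8_1 and at 86.77, 109.4, 93.43 and 78.64 CPM in tamoxifen clone4_1, clone4_2, clone8_1 and clone8_2. The vehicle libraries lay inside the tamoxifen range. On the log2 scale the difference was -0.07 ± 0.16 (SE), with the narrowest interval of the 10 members, -0.44 to 0.29.

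**Figure D3:**
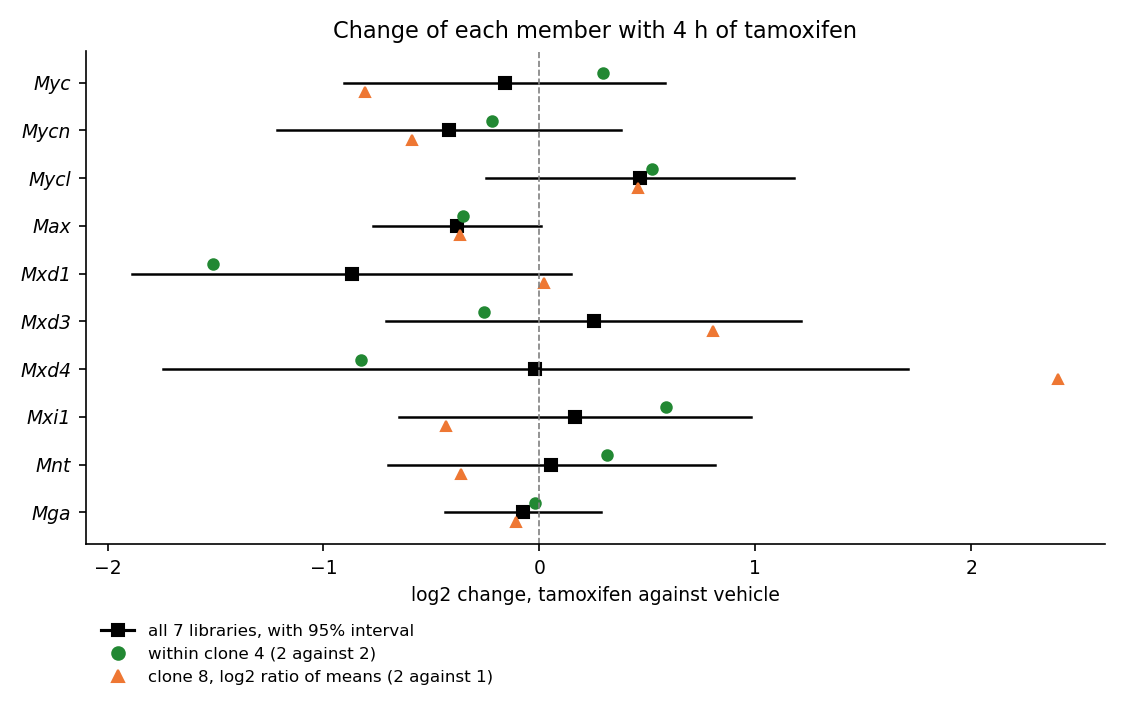
Log2 change of each member with tamoxifen: squares with 95% intervals are the edgeR fit of all 7 libraries, circles the fit within clone 4, and triangles the log2 ratio of CPM means in clone 8, which has 1 vehicle library. All 10 intervals include 0, and the clones lie on opposite sides of 0 for Myc, Mxd1, Mxd3, Mxd4, Mxi1 and Mnt.

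Clone is the only batch in the labels, so the comparison was repeated within clones. Within clone 4, with 2 libraries a group, 0 of 16060 genes (0%) were called by edgeR's quasi-likelihood test, 1264 genes (7.87%) had an unadjusted p under 0.05, and DESeq2 called 120. Mxd1 was the single member at an unadjusted p under 0.05, with a log2 difference of -1.51 ± 0.56 (SE; unadjusted p = 0.0311, adjusted p = 0.612, edgeR). In clone 8 the single vehicle library had 3.75 CPM of Mxd1 and the tamoxifen libraries a mean of 3.81 CPM. Max was lower with tamoxifen in both clones, with a log2 difference of -0.35 ± 0.20 (SE) in clone 4 and a log2 ratio of -0.37 in clone 8. Mycl was higher in both, with 0.52 ± 0.38 (SE) in clone 4 and a log2 ratio of 0.46 in clone 8. Myc was higher in clone 4 (0.29 ± 0.21, SE) and lower in clone 8 (log2 ratio -0.81). The interaction of clone and treatment was called in 514 of 16248 genes (3.16%) and in 0 of the 10 members, with adjusted p-values from 0.365 for Mxd4 to 0.987 for Max (edgeR). It rests on vehicle clone8_1. With tamoxifen clone8_2 left out, the interaction of Myc was -1.98 ± 0.37 (SE). Clone 8 is represented there by the libraries named clone8_1 alone.

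Summed per kilobase, the activators Myc, Mycn and Mycl reached 48.5 ± 12.06 (SD, n = 3) without and 42.2 ± 12.43 (SD, n = 4) with tamoxifen. Myc supplied 59.4% to 86.8% of that sum over the 7 libraries. The antagonists Mxd1, Mxd3, Mxd4, Mxi1 and Mnt together reached 11.82 ± 0.943 (SD, n = 3) and 12.81 ± 4.161 (SD, n = 4). The activators exceeded the antagonists in each library, by a ratio of 2.765 to 5.074 in vehicle and of 1.396 to 6.602 in tamoxifen libraries. The lowest ratio was that of tamoxifen clone8_1, which had the least Myc and the most Mxd3. Mxd3 was the largest part of the antagonist sum in 7 of 7 libraries, and 12.25 of 18.05 in tamoxifen clone8_1. The limit from its overlap with Prelid1, with the strand setting not given, therefore holds for that sum too. Max was close to the sum of its activators, with a ratio of 1.192 ± 0.270 (SD, n = 3) without and 1.078 ± 0.265 (SD, n = 4) with tamoxifen. These sums describe transcripts per length, and the differences between groups were smaller than the spread within them for each of the 3 ratios.

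**Figure D4:**
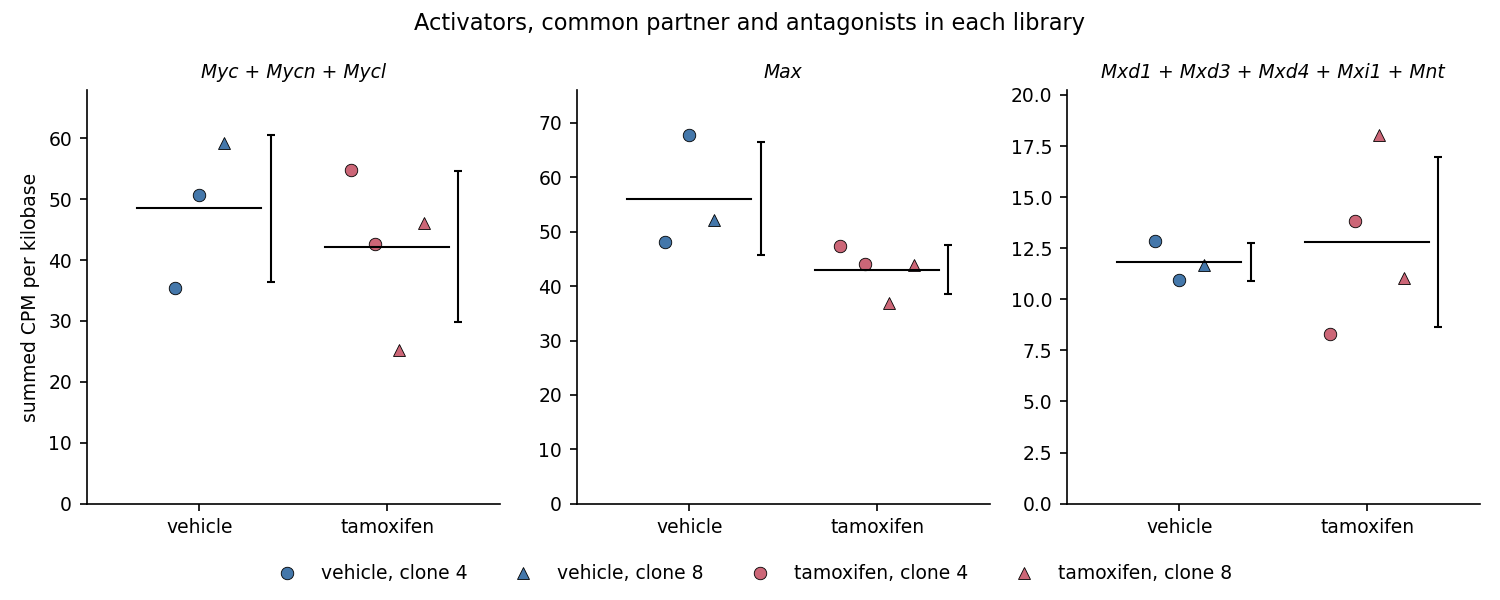
Summed CPM per kilobase of the activators, of Max and of the antagonists in each library, with group means as lines and 1 SD as bars. The activator and antagonist sums overlap between groups, and tamoxifen clone8_1 has the lowest activator and the highest antagonist sum.

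The members also differed in how much they varied among libraries of the same group. The SD of log2 CPM within groups was 0.592 for Myc and 0.595 for Mycn, against medians of 0.264 and 0.311 among tested genes with a mean within a factor of 2 of theirs. For Myc the value was 0.201 without the libraries named clone8_1, near the median of 0.188 for such genes. For Mycn it was 0.764 without them, higher than in 98.7% of such genes. Mga and Max had SDs of 0.160 and 0.202, below the medians of 0.249 for both. Without the libraries named clone8_1, both stood above the corresponding medians, at 0.201 and 0.208 against 0.169.

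By a fixed rule, the genes most like each of the 4 members of highest mean CPM were named from 8049 tested genes with a mean of at least 10 CPM, by Pearson correlation of log2 CPM over the 7 libraries. These are the highest of many values over 7 points that share their depth and scaling, so they describe likeness only. Myc was most like Esyt3 (r = 0.99), Dpp4 (0.981) and Xpc (0.981), and Mycn most like Ckb (0.98), BC051665 (0.964) and Adi1 (0.958). Max was most like Nipsnap3b (0.982), Arnt (0.977) and Hsd17b7 (0.973), and Mga most like Hmgcs1 (0.96), Aebp2 (0.908) and Rbpj (0.904). Dpp4 encodes a membrane peptidase, Ckb brain-type creatine kinase, Arnt a partner of hypoxia and aryl hydrocarbon receptor factors, Hmgcs1 an enzyme of cholesterol synthesis and Rbpj the transcription factor of Notch signalling.

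The proteins that work with the network were followed in fixed lists, drawn from general knowledge but with earlier results of these data known. No gene of any list was called, and 2.69% of all genes had an unadjusted p under 0.05 with a higher value and 3.28% with a lower one. The groups did not overlap for 3.71% of all genes with higher and 4.74% with lower values. Some list genes not named below also had no overlap. In the parallel branch of Mlx, a Max-like protein that pairs with Mnt, some Mxd proteins and the glucose-responsive factors Mlxip and Mlxipl, 0 of 3 genes passed that limit. Mlx itself stood at 39.97, 45.22 and 39.84 CPM in vehicle clone4_1, clone4_2 and clone8_1 and at 33.60, 28.58, 24.49 and 37.58 CPM in tamoxifen clone4_1, clone4_2, clone8_1 and clone8_2. Like Max it was lower in each tamoxifen library than in each vehicle library, with a log2 difference of -0.42 ± 0.19 (SE; unadjusted p = 0.0542, edgeR). Of 14 coactivators of Myc (acetyltransferase, helicase and elongation factors), 6 were higher and 8 lower and 0 passed the unadjusted limit. The most abundant was Ruvbl2, a helicase subunit, at 565.5 ± 162.3 CPM (SD, n = 3) without and 525.5 ± 14.58 CPM (SD, n = 4) with tamoxifen. Of 12 corepressor genes used by Mxd proteins, subunits of the Sin3 complex and the separate corepressor Ncor1, 6 were higher, 6 lower and 0 past the limit. Rbbp7, a histone-binding subunit, was the most abundant at 1026 ± 246.7 CPM (SD, n = 3) without and 809.3 ± 58.38 CPM (SD, n = 4) with tamoxifen.

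Partners of Mga in the Polycomb complex numbered 9, of which 5 were higher and 4 lower. Cbx3, a heterochromatin protein of that complex, was the one at an unadjusted p under 0.05. It stood at 43.40, 36.03 and 27.29 CPM in vehicle clone4_1, clone4_2 and clone8_1 and at 57.55, 59.40, 59.19 and 46.03 CPM in tamoxifen clone4_1, clone4_2, clone8_1 and clone8_2, without overlap. Its log2 difference was 0.64 ± 0.20 (SE; unadjusted p = 0.0103, adjusted p = 0.794, edgeR). Rnf2, the ubiquitin ligase and most abundant partner, had a log2 difference of -0.28 ± 0.17 (SE).

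Of 12 germline genes known as targets of silencing by Mga and Max, 11 were tested and Taf7l was too low. Sycp3, a protein of meiotic chromosomes, was the most abundant, at 96.79 CPM in vehicle clone4_1 and 35.28 to 59.41 CPM in the other 6 libraries. Of the 11 genes, 6 were higher with tamoxifen and 5 lower, with a median log2 difference of 0.10 that was -0.26 without vehicle clone4_2, -0.11 without tamoxifen clone4_2 and -0.034 without a filter on low counts. Ddx4 and Tdrkh, a Tudor-domain protein of the piRNA pathway, had an unadjusted p under 0.05, both with no overlap between groups. Ddx4 stood at 1.99, 1.84 and 1.22 CPM in vehicle clone4_1, clone4_2 and clone8_1 and at 4.10, 5.99, 2.96 and 3.28 CPM in tamoxifen clone4_1, clone4_2, clone8_1 and clone8_2, a log2 difference of 1.28 ± 0.43 (SE; unadjusted p = 0.0135, adjusted p = 0.794, edgeR). Tdrkh ranged from 4.24 to 6.82 CPM in vehicle and from 9.18 to 13.57 CPM in tamoxifen libraries, a log2 difference of 0.92 ± 0.29 (SE; unadjusted p = 0.00922, adjusted p = 0.794, edgeR). The promoter window of Ddx4 holds the E-box printed with those of the members, and that of Tdrkh holds none in this window.

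Among 10 regulators of Myc protein stability, 6 were higher and 4 lower. Ppp2r5a, a regulatory subunit of the phosphatase that acts on Myc, ranged from 7.15 to 7.69 CPM in vehicle and from 9.71 to 24.38 CPM in tamoxifen libraries, with no overlap. Its log2 difference was 1.03 ± 0.34 (SE; unadjusted p = 0.0118, adjusted p = 0.794, edgeR). Aurka, a kinase that stabilises Mycn and the most abundant gene of the list, had a log2 difference of -0.21 ± 0.17 (SE).

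Genes widely used as targets of Myc were read last. Of 25 nucleolar and ribosome production genes, 20 were lower with tamoxifen (80%, against 48.3% of all genes tested), and 0 reached an unadjusted p under 0.05. The median log2 difference was -0.18, with values from -0.37 for Ddx21 to 0.31 for Ddx18, both RNA helicases. Npm1, the most abundant, had 2610 ± 422.1 CPM (SD, n = 3) without and 2347 ± 198.4 CPM (SD, n = 4) with tamoxifen. The summed level was highest in vehicle clone8_1 (11060 CPM), the library with the most Myc, and lowest in tamoxifen clone8_1 (7669 CPM), the library with the least, and the other 5 libraries lay between 8002 and 9310 CPM. Myc and this sum did not keep 1 order, since tamoxifen clone4_1 had the second highest Myc (74.98 CPM) and the second lowest sum (8002 CPM). Vehicle clone8_1 also had the highest sum of the coactivators of Myc, 2465 CPM against 1796 to 1979 CPM in the other libraries. Its sum of the Mxd corepressors, 2379 CPM, was likewise the highest, but those of the Mga partners and of the stability regulators were not. Without both libraries named clone8_1, 16 of the 25 genes were higher and 9 lower, with a median of 0.033. Without vehicle clone8_1 alone 10 were higher and 15 lower, with a median of -0.023, and without tamoxifen clone8_1 alone 6 were higher and 19 lower, with a median of -0.11. Npm1, like Eif4a1 and Cbx3, has processed pseudogenes, and how the counting shared reads with them is not given in the sources used here.

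Of 20 target genes of metabolism and transport, 7 were higher and 13 lower, with a median of -0.10 that was 0.042 without vehicle clone8_1 and 0.068 without both libraries named clone8_1. Hk2, a hexokinase, stood at 274.6, 258.0 and 209.1 CPM in vehicle clone4_1, clone4_2 and clone8_1 and at 172.9, 135.1, 195.3 and 164.4 CPM in tamoxifen clone4_1, clone4_2, clone8_1 and clone8_2, without overlap. Its log2 difference was -0.57 ± 0.18 (SE; unadjusted p = 0.00917, adjusted p = 0.794, edgeR). Slc7a5, an amino acid transporter, had 11.95 ± 5.284 CPM (SD, n = 3) without and 22.99 ± 6.811 CPM (SD, n = 4) with tamoxifen, a log2 difference of 0.94 ± 0.35 (SE; unadjusted p = 0.0213, adjusted p = 0.794, edgeR). Paics, a purine synthesis enzyme and the most abundant of the list, had a log2 difference of -0.23 ± 0.18 (SE). The 16 targets of the cell cycle and translation gave 5 higher and 11 lower, 0 past the unadjusted limit, and a median of -0.10 that was 0.064 without vehicle clone8_1, -0.022 without tamoxifen clone8_1 and 0.075 without both. Eif4a1, a translation helicase and the most abundant of them, had a log2 difference of -0.11 ± 0.16 (SE).

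Of 11 genes that Myc is known to repress, 5 were higher and 6 lower, with a median of -0.079. Without vehicle clone8_1 it was -0.37, and without vehicle clone4_1, vehicle clone4_2 or tamoxifen clone8_2 it was above 0, between 0.046 and 0.057. Klf6, a zinc finger factor and the most abundant of them, ranged from 196.3 to 363.0 CPM in vehicle and from 164.9 to 182.9 CPM in tamoxifen libraries, with no overlap. Its log2 difference was -0.70 ± 0.20 (SE; unadjusted p = 0.00611, adjusted p = 0.794, edgeR). Ndrg2, a stress-responsive gene, had 2.575 ± 1.358 CPM (SD, n = 3) without and 0.766 ± 0.523 CPM (SD, n = 4) with tamoxifen, a log2 difference of -1.75 ± 0.74 (SE; unadjusted p = 0.0392, adjusted p = 0.794, edgeR). Cdkn1a, the cell cycle inhibitor best known as repressed by Myc, had a log2 difference of 0.07 (unadjusted p = 0.866, edgeR) and is named outside the rule.

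**Figure D5:**
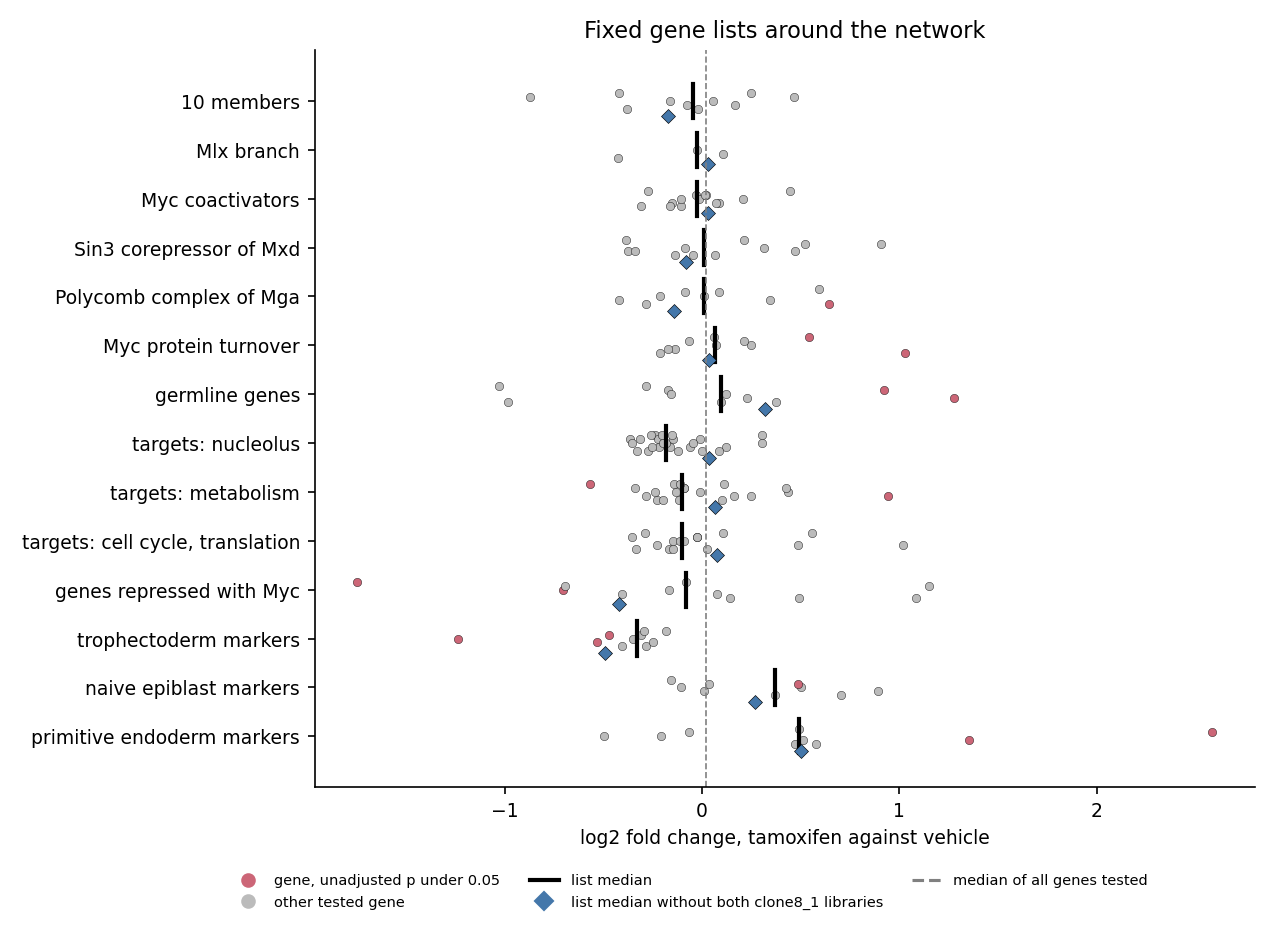
Log2 difference of each tested gene of the members, the cell type markers and the fixed lists, without the feedback genes of ERK. Genes at an unadjusted p under 0.05 are in red. The list median is a black bar, and the median without both libraries named clone8_1 a blue diamond. The dashed line is the median of all 16248 genes tested; the medians of the 3 target lists lie below it with all libraries and above it without the 2.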

How the data were processed

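RNA was sequenced from 7 pooled ICM libraries. The authors deposited raw counts per Ensembl gene; bcl2fastq 2.19.1, STAR 2.5.3a and build mm10 are named in the submitters' processing notes. The counting program, annotation, strand setting and duplicate handling are not given in the sources used here. Of 52636 genes, 52489 matched GENCODE M21 (GRCm38), which gave symbols, coordinates and lengths.

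Tests of the counts used R 4.3.3 and edgeR 4.0.16: TMM factors, the expression filter by group, the quasi-likelihood test with treatment as the only term, and Benjamini-Hochberg adjustment over all genes tested, called under 0.05. CPM use TMM factors; log2 CPM use a prior count of 2. Log2 differences are fitted log2 fold changes, tamoxifen against vehicle. Their intervals use the t distribution of that fit; count intervals are exact Poisson (scipy 1.17.1). The test was checked on simulated counts. A pass was required only at a spread lower than that of these data (biological coefficient of variation 0.456). The check therefore does not establish power here. Alternatives were DESeq2 1.42.0, other scalings, filters and covariates, and each library left out. Members and lists were chosen with earlier results of these data known. Named genes were the 10 members, list genes at an unadjusted p under 0.05, the most abundant gene of each list, and the 3 genes most like each of 4 members; Cdkn1a, Ddx18 and Ddx21 were chosen after their values were seen. A gene that this rule covers is not reported here.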

Additional observations from a re-analysis of the deposited data

Results flagged for a closer look

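The interaction of clone and treatment was called in 514 genes by edgeR's quasi-likelihood test, or 3.16% of those tested, and in 0 of the 10 members; a share that small says nothing particular about 10 genes. With tamoxifen clone8_2 left out, clone 8 had only the libraries named clone8_1. From that fit only the effect size of Myc is given, above. Clone and the single clone 8 vehicle library cannot be told apart there.

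A library stood far from the other 3 of its group in 2 of 50 groups of 4 that were looked at, where chance alone gives about 1 in 20. The summed level of the 10 regulators of Myc protein stability was 1329 CPM in tamoxifen clone8_2 and 1607 to 1636 CPM in the other tamoxifen libraries. Cbx3 was at 46.03 CPM in tamoxifen clone8_2 and at 57.55 to 59.40 CPM in the others.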

How the results depend on the processing

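No member was called for treatment in any alternative. The sign of Max, Mxd1, Mycl and Mga was the same in all 15. It turned for Myc without vehicle clone8_1 (0.11), without tamoxifen clone8_1 (0.07) and without both (0.35; range with single libraries left out -0.34 to 0.11). Mycn, with single libraries left out, ranged from -0.69 to 0.023, Mxi1 from -0.0064 to 0.44, and Mnt from -0.27 to 0.34. Mxd3 ranged from -0.11 to 0.51 and was -0.23 without both libraries named clone8_1. Mxd4 ranged from -0.50 to 0.30, and was 0.22 with clone as a term, 0.0091 with scaling from genes of at least 1000 nt and 0.23 with the replicate block; at a mean count of at least 50 it was not tested.

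Genes called for treatment numbered 0, but 4 with DESeq2 and 2 without both libraries named clone8_1. Within clone 4 they numbered 0, but 120 with DESeq2, 217 without a filter and 2 at a mean count of at least 50, and 0 to 309 with a library left out (309 without vehicle clone4_2, 250 without vehicle clone4_1), where a lone library is assumed to vary like the other group. The 514 interaction genes became 989 with DESeq2, 991 without a filter and 52 to 695 with a library left out (52 without tamoxifen clone4_2, 107 without tamoxifen clone4_1, 267 without vehicle clone4_1); without vehicle clone8_1 the interaction could not be fitted. The cause of these shifts was not tested.

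List medians moved by more than 1 SD between libraries without both libraries named clone8_1 for the Mxd corepressors (-0.081), the Mga complex (-0.14), the nucleolar (0.033), metabolic (0.068) and cell cycle (0.075) targets and the genes repressed with Myc (-0.42). With single libraries left out, the Mxd corepressors ranged from -0.077 to 0.067, the Mga complex from -0.094 to 0.17, the germline genes from -0.26 to 0.21, the metabolic targets from -0.20 to 0.042, the nucleolar targets from -0.29 to -0.023, the cell cycle targets from -0.16 to 0.064 and the genes repressed with Myc from -0.37 to 0.057 (0.14 with the replicate block). The median also turned above 0 without vehicle clone8_1 for the Mlx branch (0.18) and the coactivators (0.045), and below 0 for the stability regulators without tamoxifen clone4_2 (-0.015) or clone8_1 (-0.0051).

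Libraries of different groups with the same name share a clone and a number only. Their deviations correlated at 0.00775, 0.0206 and -0.0683, none of them the highest for its vehicle library, and no pairing follows. With the replicate block 0 genes were called, over all libraries and within clone 4.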
